A study of Homo sapiens with 12 samples.

Results

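The 9 genes described here code for tumour antigens of the MAGE and PRAME families: MAGEA1 (ENSG00000198681), MAGEA3 (ENSG00000221867), MAGEA4 (ENSG00000147381), MAGEA6 (ENSG00000197172), MAGEA10 (ENSG00000124260), MAGEA12 (ENSG00000213401), MAGEC1 (ENSG00000155495), MAGEC2 (ENSG00000046774) and PRAME (ENSG00000185686). They were found by symbol among the 33932 genes listed for the melanoma line A375 and the 32478 listed for the melanoma line CHL1, and all 9 are among the 29735 genes listed for both. The names were chosen with earlier results of the same libraries known, from the very contrasts given below. Their own fold changes are therefore descriptions without a p-value of their own. How many of them passed the threshold is stated beside the share of all genes that did, and nothing is read from that count. A level is in CPM, the count scaled to the library's total with TMM factors over all 12 libraries, and a difference is a log2 fold change (log2FC) with its standard error (SE).

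The study sequenced RNA of A375, which carries mutant BRAF, and CHL1, which does not, with 3 libraries in each of 4 groups. The control groups, called parental here, grew in RPMI medium without drug. The resistant derivative of A375 had received rising doses of palbociclib, an inhibitor of the cell-cycle kinases CDK4 and CDK6, for 7 months, and that of CHL1 for 3 months. Both derivatives were kept at 4 µM, and all cells spent 72 h without palbociclib before RNA extraction. The labels do not say whether a derivative is a clone or a mixed population, nor whether replicates are separate cultures, so errors measure only the spread between these libraries. Drug exposure, outgrowth of resistant cells and months of culture cannot be told apart in this design. In bulk RNA, fewer cells expressing a gene and less RNA per cell cannot be told apart either.

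Total counts ran from 25398920 to 29812686 per library, where 3 counts stood for 0.0956 to 0.122 CPM. The melanocyte lineage factors SOX10 and MITF were present in every library, SOX10 at 201 to 1166 CPM and MITF at 25.0 to 51.9 CPM. MITF was lower in both resistant derivatives by edgeR (log2FC -0.48 ± 0.15, adjusted p = 0.0423, in A375 and -0.37 ± 0.07, adjusted p = 0.00280, in CHL1), but in A375 the call was lost in 5 of 6 fits that left out 1 library, all except the one without resistant replicate 2 (adjusted p up to 0.122). The pigment-cell antigens PMEL and MLANA were low everywhere, at 0.439 to 1.33 CPM and 0.359 to 0.917 CPM. Of 4 germ-cell markers DAZL was not analysed here, and DDX4, SYCP1 and SYCP3 summed to at most 1.34 CPM in any library. DDX4 had 0 to 2 counts per library, and SYCP1 and SYCP3, tested in A375 alone, were not called there.

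Markers of other cell types moved with the state in A375. The 4 keratinocyte and epithelial markers summed to 20.03 to 28.3 CPM in parental and 4.69 to 5.41 CPM in resistant A375, and both tested, KRT14 (log2FC -2.35) and KRT5 (-5.91), fell. The 4 fibroblast markers summed to 12.1 to 14.2 CPM against 37.1 to 47.2 CPM, and 2 of 4 tested, COL1A2 (5.16) and LUM (1.58), rose. In CHL1 these sums went from 1.64 to 3.11 up to 3.32 to 5.10 CPM and from 13.7 to 19.7 down to 8.17 to 10.2 CPM. Of the leukocyte and endothelial markers, 2 were tested in A375 and 3 in CHL1, and edgeR and DESeq2 called 0, with 1 at an unadjusted p below 0.05 (in CHL1, by edgeR). The melanoma and melanocyte markers summed to 414 to 566 CPM in parental and 254 to 395 CPM in resistant A375. Of 6 tested there, 1 rose, the pigment gene TYRP1 (3.02), and 1 fell, MITF, with a median log2FC of -0.40. In CHL1 the sums were 1129 to 1368 CPM in parental and 1161 to 1359 CPM in resistant cells. Of 8 tested in CHL1, S100B rose (0.69), DCT (-1.22) and MITF fell, and 5 were not called. The part of these shifts in the antigen values was not tested.

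MAGE proteins share a MAGE homology domain through which they bind RING-type ubiquitin ligases and change what those ligases act on. Type I MAGE genes (the A, B and C families) lie on the X chromosome, are normally active in germ cells and are switched on in many melanomas, whereas type II genes such as MAGED1 and NDN are broadly expressed. PRAME is a leucine-rich-repeat protein that serves as a substrate receptor of a CUL2 ubiquitin ligase and can repress retinoic acid receptors. Type I MAGE promoters are known to be silenced by DNA methylation at CpG sites in most adult cells and to be opened when that methylation is lost. MAGE and PRAME peptides shown on HLA are targets of T cells, which is why these genes are followed in melanoma.

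Sequence likeness decides which of these genes can be read apart, so MAGEA3 and MAGEA6 are shown over the same 75 coding bases (bases 558 to 632 of the coding sequence, counted from the start codon). The stretch was chosen because it holds 4 of the 18 mismatches between the 942-base coding sequences, and capitals mark those mismatches.
MAGEA3: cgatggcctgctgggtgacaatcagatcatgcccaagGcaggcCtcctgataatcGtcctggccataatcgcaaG
MAGEA6: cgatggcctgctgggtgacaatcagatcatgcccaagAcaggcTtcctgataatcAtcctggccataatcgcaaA
The coding sequences of this pair are 98.1% identical, with an unbroken identical run of 308 bases. Of the 50-base words in GENCODE release 29 transcripts of MAGEA3, 56.5% also occur in another gene, and for MAGEA6 it is 53.9%. With 100-base words the shares are 34.9% and 33.0%. MAGEA12, whose coding sequence is 92.1% identical to that of MAGEA3, shared 13.8% of its 50-base words, MAGEA10 15.9% and MAGEA4 7.33%. MAGEA1, MAGEC1 and MAGEC2 shared at most 0.662%, and PRAME shared 0 of 4023 words. The values of MAGEA3 and MAGEA6 are thus uncertain as single genes, while those of MAGEA1, MAGEC1, MAGEC2 and PRAME rest on nearly unique sequence. The libraries do not mark the strand, and MAGEA4 and PRAME each overlap an antisense gene. The antisense gene of MAGEA4 had 1370 counts over the A375 libraries, beside 117615 for MAGEA4 itself.

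Promoters are shown for MAGEA3, for the neighbours MAGEC1 and MAGEC2, whose levels moved in opposite directions in A375, and for PRAME, the autosomal member. Each is the 250 bases before a RefSeq transcription start (GRCh38.p14), read 5′ to 3′ on the gene's strand, with CpG sites in capitals.
MAGEA3 (chrX:152698544-152698793, plus strand): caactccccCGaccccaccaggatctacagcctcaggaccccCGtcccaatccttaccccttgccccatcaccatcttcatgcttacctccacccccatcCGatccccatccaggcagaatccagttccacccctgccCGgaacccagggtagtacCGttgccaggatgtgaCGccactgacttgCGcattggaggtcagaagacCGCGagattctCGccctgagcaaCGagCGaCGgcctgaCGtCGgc
MAGEC1 (chrX:141903644-141903893, plus strand): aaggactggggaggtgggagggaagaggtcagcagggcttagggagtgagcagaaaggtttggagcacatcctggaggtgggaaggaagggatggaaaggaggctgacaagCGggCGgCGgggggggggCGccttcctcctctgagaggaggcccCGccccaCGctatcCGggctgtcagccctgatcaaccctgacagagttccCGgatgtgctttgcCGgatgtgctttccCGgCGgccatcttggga
MAGEC2 (chrX:142205291-142205540, minus strand): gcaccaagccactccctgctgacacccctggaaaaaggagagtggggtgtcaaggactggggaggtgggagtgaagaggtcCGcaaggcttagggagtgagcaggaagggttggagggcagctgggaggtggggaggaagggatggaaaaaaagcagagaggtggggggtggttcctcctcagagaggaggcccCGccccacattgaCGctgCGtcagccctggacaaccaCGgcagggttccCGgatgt
PRAME (chr22:22559266-22559515, minus strand): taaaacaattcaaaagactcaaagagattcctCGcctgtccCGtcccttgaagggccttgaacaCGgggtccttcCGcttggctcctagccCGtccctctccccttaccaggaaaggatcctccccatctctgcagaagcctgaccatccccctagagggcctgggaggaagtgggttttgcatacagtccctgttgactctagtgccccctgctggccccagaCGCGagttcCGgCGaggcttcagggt
RefSeq gave a promoter for 7 of the 9 genes, not for MAGEA1 and MAGEA10. The promoter of MAGEA6 (chrX:152769690-152769939, minus strand) is identical to that of MAGEA3 over all 250 bases. Both hold 15 CpG sites, MAGEC1 holds 11, MAGEC2 holds 6 and PRAME holds 9 at the start shown, beside a median of 11 over all 35116 promoters of this length. ETS factors, which are known activators of MAGE-A promoters, bind sites around the letters GGAA or GGAT. The letters CCGGAA, searched on both strands, occur in 14.5% of all promoters and once each in MAGEA3, MAGEA6 and the PRAME start shown. The letters CCGGATGT, a search added after the sequences had been read, occur in 0.592% of all promoters. MAGEA4, MAGEA12 and MAGEC2 hold 1 copy at each listed start and MAGEC1 holds 2, and CCGGATGT is not in the windows of MAGEA3, MAGEA6 and PRAME. These matches describe letters, and binding was not measured.

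Whether the antigen genes differ between resistant and parental A375 is the first comparison. In A375, 7 of the 9 genes were lower in resistant than in parental cells and 2, MAGEC1 and PRAME, were higher. MAGEA10 was 85.5-fold lower, MAGEA1 8.77-fold and MAGEC2 5.74-fold, while MAGEA3, MAGEA4, MAGEA6 and MAGEA12 were 1.92-fold to 2.31-fold lower. All 9 passed the filter on low counts and were called by edgeR's quasi-likelihood test at a Benjamini-Hochberg adjusted p below 0.05. Over all 18086 genes tested 28.3% were called, 13.4% higher and 14.8% lower in resistant cells. Since the genes were chosen from this comparison, nothing is read from their count, nor from groups that do not overlap. The share of all genes without such overlap is not given here. The median log2FC was -1.004 over the 9 genes and -0.000844 over all genes tested.

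**Figure D1:**
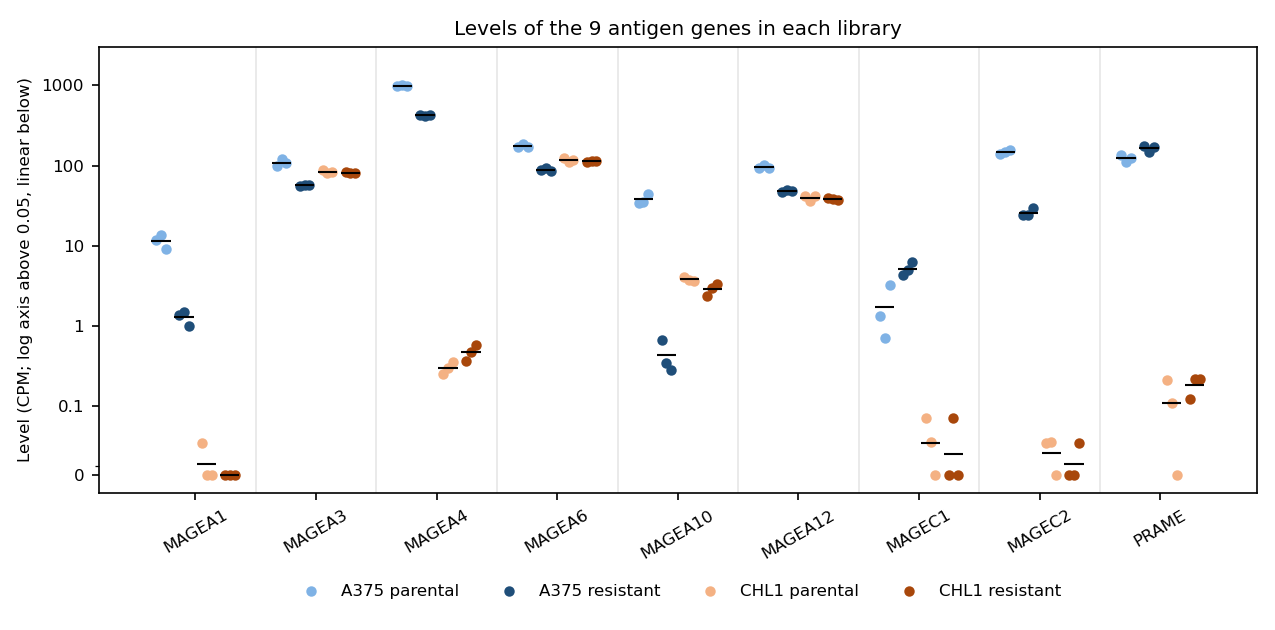
Level of each antigen gene in each of the 12 libraries, in CPM on an axis that is logarithmic above 0.05 and linear below, with 1 point per library and a bar at the mean of each group. The resistant A375 points lie below the parental ones for 7 genes and above them for MAGEC1 and PRAME, and in CHL1 the points of MAGEA1, MAGEA4, MAGEC1, MAGEC2 and PRAME lie below 1 CPM. The genes were chosen from this comparison, so nothing is read from the separation of the points.

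MAGEA4, an antigen targeted by engineered T cells, was the most abundant. It had 25783, 26850 and 27057 counts in parental A375 replicates 1 to 3 and 12769, 13180 and 11976 in the resistant ones, or 978 to 995 CPM against 420 to 430 CPM. The groups were far apart and each was tight. The level went from 988 ± 8.54 to 427 ± 5.66 CPM (SD, n = 3), a log2FC of -1.21 ± 0.04 (SE).

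MAGEA3 and MAGEA6, which as proteins direct the ligase TRIM28, and MAGEA12 moved by nearly the same amount. MAGEA3 stood at 98.9, 119 and 108 CPM before resistance and at 55.3, 57.2 and 57.0 CPM in resistant cells (log2FC -0.94 ± 0.07). MAGEA6 stood at 168, 185 and 170 CPM against 88.4, 92.6 and 84.7 CPM (log2FC -0.98 ± 0.06). MAGEA12 stood at 92.4, 103 and 94.5 CPM against 46.2, 50.2 and 47.8 CPM (log2FC -1.004 ± 0.063). For each of the 3 genes every resistant library was below every parental one. The share of MAGEA6 in the sum of MAGEA3 and MAGEA6 was 61.6% ± 1.13 in parental and 61.0% ± 1.09 in resistant cells (SD, n = 3), a difference within the spread between libraries.

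MAGEA10 and MAGEA1 were lowered much further. MAGEA10 had 904, 958 and 1197 counts in parental cells and only 20, 11 and 8 in resistant cells, which is 37.9 ± 5.19 against 0.437 ± 0.208 CPM (SD, n = 3). Its log2FC was -6.42 ± 0.22. MAGEA1, the founding member of the family, had 307, 365 and 251 counts against 41, 47 and 28, or 11.5 ± 2.17 against 1.29 ± 0.258 CPM (SD, n = 3). Its log2FC was -3.13 ± 0.20. Neither gene's groups overlapped, and both remained detectable in every resistant library. A readthrough gene that overlaps MAGEA10 on the same strand was not analysed here.

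MAGEC2 and MAGEC1 are the genes of the set nearest to each other on the chromosome apart from the MAGEA cluster, and they moved in opposite directions. MAGEC2, which also partners TRIM28, stood at 140, 148 and 157 CPM in parental and 24.2, 23.9 and 29.5 CPM in resistant cells (log2FC -2.52 ± 0.09). MAGEC1, a larger protein with a repeat-rich amino-terminal part, had 35, 19 and 88 counts in parental libraries and 129, 158 and 174 in resistant ones. Its level was 1.75 ± 1.31 against 5.21 ± 0.957 CPM (SD, n = 3), a log2FC of 1.57 ± 0.41. The MAGEC1 groups did not overlap, but parental replicate 3, at 3.22 CPM, lay nearer to the resistant libraries than to the other parental ones. Without it the log2FC of MAGEC1 was 2.36.

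PRAME moved least. It stood at 136, 110 and 126 CPM in parental A375 and at 174, 149 and 168 CPM in resistant A375. Every resistant library was above every parental one, by a narrow margin between resistant replicate 2 and parental replicate 1. The mean went from 124 ± 13.3 to 164 ± 13.1 CPM (SD, n = 3), a log2FC of 0.41 ± 0.09, or 1.32-fold higher.

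The 8 MAGE genes together reached 1567 ± 38.1 CPM in parental A375 and 653 ± 2.92 CPM in resistant A375 (SD, n = 3). MAGEA4 made up 63.1% of that sum in parental and 65.4% in resistant cells. MAGEA3, MAGEA6 and MAGEA12 together made up 24.2% and 29.6%. Without MAGEA4 the sum was 579 ± 29.6 against 226 ± 5.12 CPM.

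**Figure D2:**
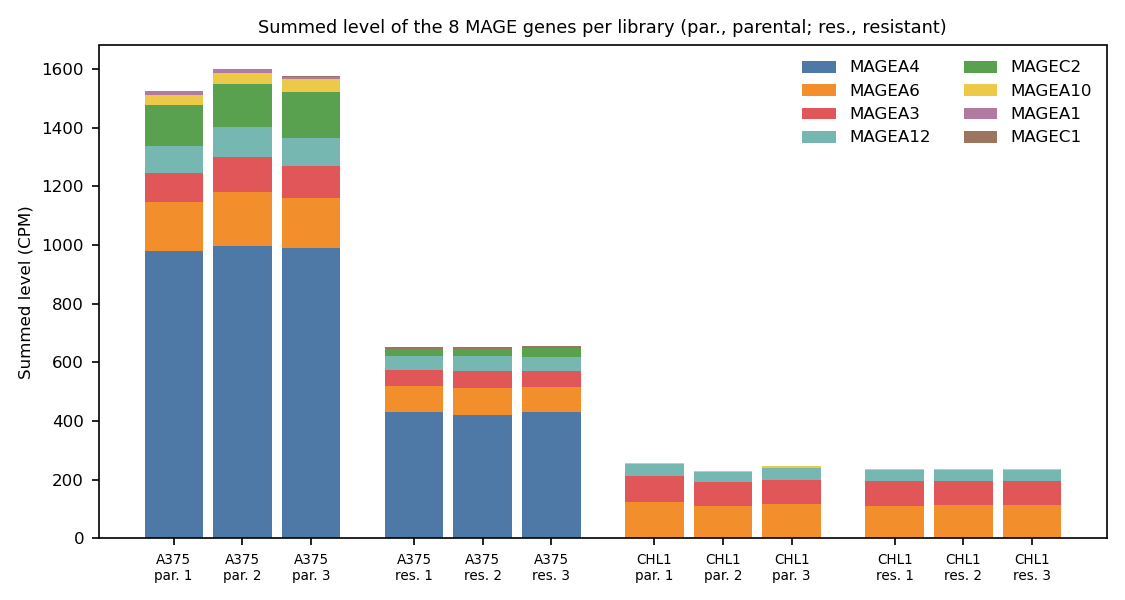
Summed level of the 8 MAGE genes in each library, in CPM, with 1 stacked bar per library and 1 colour per gene. The A375 bars are mostly MAGEA4 and fall from about 1567 to 653 CPM between the states, and the CHL1 bars hold MAGEA6, MAGEA3 and MAGEA12 at 245 and 236 CPM.

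Levels of different genes were set against each other per length of exon (CPM per kb, exon lengths from GENCODE release 29). How reads shared between genes were counted is not known, so the places of MAGEA3 and MAGEA6 in the orders below are uncertain. In parental A375 the order was MAGEA4 (321 ± 2.77 CPM per kb, SD, n = 3), MAGEA6 (93.7 ± 5.16), MAGEC2 (74.5 ± 4.06), MAGEA3 (60.9 ± 5.71), MAGEA12 (49.7 ± 2.78), PRAME (32.8 ± 3.52), MAGEA10 (13.1 ± 1.79), MAGEA1 (6.70 ± 1.27) and MAGEC1 (0.410 ± 0.307). In resistant A375 PRAME, at 43.5 ± 3.48 CPM per kb, came next after MAGEA6 at 47.5 ± 2.11, and the ranges of these neighbours in the order overlapped. With the length of the longest transcript in place of all exons, PRAME (58.0) came ahead of MAGEA6 (50.3). MAGEC2 dropped behind MAGEA12, at 13.0 ± 1.60 CPM per kb, and MAGEA10 came last at 0.151 ± 0.0716. In CHL1 the order was MAGEA6, MAGEA3, MAGEA12, MAGEA10 and MAGEA4 in both states, at 62.7, 46.8, 20.5, 1.33 and 0.0980 CPM per kb in parental cells, with the other 4 genes below these and not told apart from each other by their ranges in parental cells.

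The genes around them are not members of the set, but their tests are not independent of its choice. Members and neighbours share a stretch of the chromosome, and some neighbours are MAGE or SPANX genes. Of the 20 tested protein-coding genes that flank the MAGEA genes (10 on each side), 19 fell and 0 rose in resistant A375, with a median log2FC of -1.05. Of 7 such genes lying between MAGEA members, 6 fell: GABRA3 (log2FC -1.08), MAGEA2B (-0.71), CSAG1 (-1.15), CETN2 (-0.61), NSDHL (-0.91) and ZNF185 (-0.98), while GABRE was at -0.76 and not called. CETN2, a centrin, and NSDHL, an enzyme of cholesterol synthesis, are not germline genes. Around MAGEC1 and MAGEC2, 19 of 20 flanking genes fell and 1 rose, with a median of -2.37. They included SLITRK2 (-6.09), SLITRK4 (-5.07), LDOC1 (-3.35), IDS (-1.51) and FMR1 (-0.89), and the gene that rose was FGF13 (1.11 ± 0.16 SE, edgeR adjusted p = 0.000919). Some of these 20 genes, such as EOLA1 and MAGEA11, are also among the 20 that flank the MAGEA genes. Around PRAME on chromosome 22, 1 of 20 flanking genes rose (GNAZ, log2FC 1.03), 1 fell (PPM1F, -0.19) and the median was -0.01.

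Beside these neighbours the members divided into those near the local median and those beyond it. The 20 genes nearest to MAGEA3, MAGEA4, MAGEA6 and MAGEA12 had medians of -0.97, -0.99, -0.94 and -0.94, and those genes themselves stood at -0.94 to -1.21. The sets of 20 around the MAGEA members overlap, and those of MAGEA6 and MAGEA12 are the same genes, so the medians are not separate observations. MAGEA1 (-3.13) and MAGEA10 (-6.42) lay below local medians of -0.94 and -0.97. MAGEC2 (-2.52) lay near its local median, and MAGEC1 (1.57) was above it and above all 20 flanking genes.

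**Figure D3:**
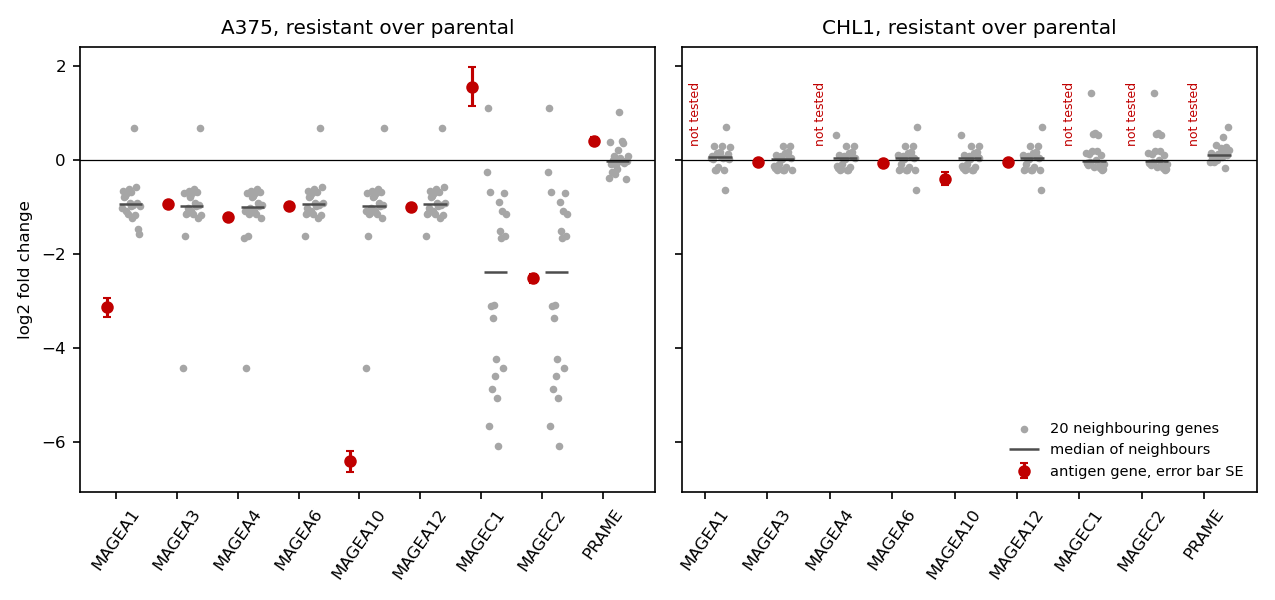
log2 fold change of resistant over parental cells for each antigen gene (red, error bar SE) and for its 20 flanking protein-coding genes (grey, with a bar at their median), in A375 on the left and CHL1 on the right. In A375 MAGEA3, MAGEA4, MAGEA6, MAGEA12 and MAGEC2 lie at the level of their neighbours, MAGEA1 and MAGEA10 far below and MAGEC1 above, and in CHL1 the neighbours centre on 0.

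The lowered stretch was wider than the MAGE clusters. The tested protein-coding genes of chromosome X, members left out, were divided in gene order into 10 parts of nearly equal size. In A375 parts 1 to 7 had median log2FC values between 0.01 and 0.29. Part 8, from WDR44 to PABIR3, had 41 of 49 genes lower and a median of -0.70. Part 9, from MOSPD1 to TREX2, holds all 8 MAGE genes, and 45 of its 49 genes fell, with a median of -0.98. Part 10, from HAUS7 to IL9R, had 42 of 49 lower and also a median of -0.98. Over the whole X chromosome 163 of 495 genes fell (32.9%) and 89 rose. Outside chromosomes X and 22 the share that fell was 16.5%. In CHL1 no part had a median outside -0.02 to 0.07, and the part holding the MAGE genes had 6 of 46 genes higher and 0 lower. DNA copy number was not measured, and its part in these values was not tested.

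**Figure D4:**
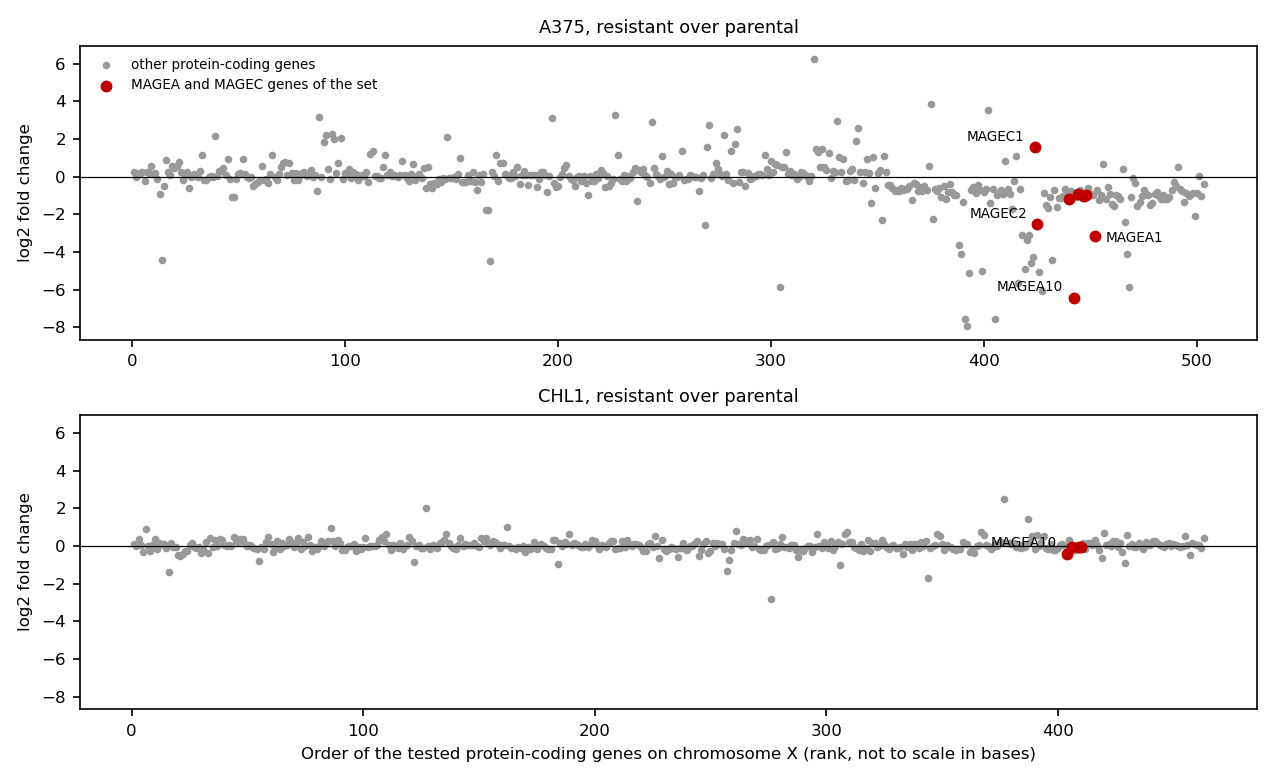
log2 fold change of resistant over parental cells for the tested protein-coding genes of chromosome X in gene order (rank), A375 above and CHL1 below, with the MAGEA and MAGEC genes in red. In A375 parts 8 to 10 of the order lie mostly below 0, with medians of -0.70, -0.98 and -0.98, and the MAGE genes lie in that stretch, while in CHL1 the whole order centres on 0.

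In CHL1 the same comparison found no called member. MAGEA3, MAGEA6, MAGEA10 and MAGEA12 passed the filter on low counts, and edgeR called 0 of these 4, where 21.0% of the 17219 genes tested were called, 9.5% higher and 11.5% lower. Of the 4, 1 had an unadjusted p below 0.05, and DESeq2 also called 0. MAGEA3 stood at 87.9, 79.8 and 83.6 CPM in parental and 83.8, 81.2 and 79.9 CPM in resistant CHL1 (log2FC -0.04 ± 0.05). MAGEA6 stood at 124, 110 and 116 CPM against 111, 113 and 114 CPM (log2FC -0.05 ± 0.05), and MAGEA12 at 41.4, 36.7 and 41.4 CPM against 39.4, 38.6 and 37.3 CPM (log2FC -0.05 ± 0.06). The groups overlapped for all 3 genes. MAGEA10 had 115, 102 and 92 counts in parental and 59, 82 and 93 in resistant libraries. Scaled to depth it stood at 4.11, 3.78 and 3.67 CPM against 2.39, 2.97 and 3.37 CPM, so every resistant library was below every parental one, by a narrow margin, with a log2FC of -0.40 ± 0.14.

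The other 5 genes were near the limit of detection in CHL1 and were not tested there. MAGEA4 had 7, 8 and 9 counts in parental and 9, 13 and 16 counts in resistant libraries, and PRAME had 6, 3 and 0 against 3, 6 and 6. MAGEC1 and MAGEC2 had at most 2 counts in any CHL1 library. MAGEA1 had 1 count in 1 parental library and 0 in the other 5, and a count of 0 allows up to 0.122 CPM. Scaled to depth, MAGEA4 lay at 0.250 to 0.359 CPM in parental and 0.365 to 0.580 CPM in resistant CHL1, without overlap but by a margin of less than 1 count, and the ranges of the other 4 genes overlapped. The summed level of the 8 MAGE genes was 245 ± 13.6 CPM in parental and 236 ± 1.02 CPM in resistant CHL1 (SD, n = 3). Of it, 98.3% and 98.6% came from MAGEA3, MAGEA6 and MAGEA12.

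The lines differed in which antigens they expressed. In the parental comparison all 9 genes were higher in A375, where 75.6% of the 19241 genes tested in the joint fit of 12 libraries were called, 38.2% higher and 37.4% lower in A375. MAGEA1, MAGEA4, MAGEC1, MAGEC2 and PRAME passed the low-count filter of that fit only through A375. Their direction followed from the filter, and nothing is read from the count. Ratios of summed counts per depth are given for the genes that were near 0 in CHL1, with exact 95% intervals that cover counting error only. MAGEA4 was 3294-fold higher in parental A375 (2214 to 5141), from 79690 counts against 24, and PRAME 1101-fold (580 to 2409), from 9993 counts against 9. MAGEC2 was 5939-fold higher (1644 to 49047), from 11974 counts against 2, MAGEA1 916-fold (164 to 36203), from 923 counts against 1, and MAGEC1 47.0-fold (15.7 to 230), from 142 against 3. MAGEA10 was higher in parental A375 by a log2FC of 3.29 ± 0.15 and MAGEA12 by 1.28 ± 0.06.

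MAGEA3, MAGEA6 and MAGEA12 were well expressed in both lines, and for MAGEA3 and MAGEA6 the line with the higher level changed with the state. MAGEA3 ranged from 98.9 to 119 CPM in parental A375 and from 79.8 to 87.9 CPM in parental CHL1, without overlap (log2FC 0.38 ± 0.06, A375 over CHL1). In resistant cells it ranged from 55.3 to 57.2 CPM in A375 and from 79.9 to 83.8 CPM in CHL1 (log2FC -0.53 ± 0.06). MAGEA6 went from 0.58 ± 0.06 in the parental comparison to -0.34 ± 0.06 in the resistant one. MAGEA12 stayed higher in A375, by 1.28 and then by 0.32 ± 0.06. MAGEA10 went from 3.29 to -2.72 ± 0.25, so that resistant CHL1 held more of it than resistant A375. In the resistant comparison 6 members were higher and 3 lower in A375, where 76.6% of genes were called, 38.0% higher and 38.6% lower. Of the 6, all but MAGEA12 had passed the low-count filter only through A375, so nothing is read from this count. MAGEA1 was at 116 counts over the resistant A375 libraries and 0 over the resistant CHL1 libraries. Set against a floor of 3 counts over the group, the ratio was 34.7-fold. The exact interval of the ratio of summed counts per depth, which covers counting error only, began lower, at 27.8-fold.

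The difference between the resistance effects of the lines (A375 effect minus CHL1 effect, the interaction term) was negative for MAGEA3 (-0.91 ± 0.09), MAGEA4 (-1.87 ± 0.22), MAGEA6 (-0.92 ± 0.08), MAGEA10 (-6.02 ± 0.28) and MAGEA12 (-0.95 ± 0.09). The MAGEA4 term rests on 24 and 38 counts over the parental and resistant CHL1 libraries. These 5 were called, where 23.6% of all genes were called and 11.9% with a lower effect in A375. MAGEA4 had passed the low-count filter only through A375, and nothing is read from this count. For MAGEA1, MAGEC1 and MAGEC2 the SE of that term was 2.06 to 2.77 and for PRAME 0.67, with 0 to 6 counts per CHL1 library, so their effects could not be compared between lines.

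Other cancer-testis genes, which are not members, were read from lists chosen with earlier results known. The counts of this and the further lists stand beside 28.3% of all genes called by edgeR in A375 and 21.0% in CHL1. Of 18 other type I MAGE genes, 4 were tested in A375: 1 rose and 2 fell. MAGEA11, a coregulator of the androgen receptor, fell from 31.9 ± 1.07 to 1.48 ± 0.321 CPM (SD, n = 3), with a log2FC of -4.42 ± 0.13 (edgeR adjusted p = 6.23e-07). MAGEA2B, 88.1% of whose 50-base words occur elsewhere, mainly in its copy MAGEA2, changed by -0.71 ± 0.06 (edgeR adjusted p = 6.89e-05). MAGEB2, from the MAGEB cluster on the other arm of the chromosome, rose from 2.34 ± 0.329 to 8.47 ± 1.59 CPM (SD, n = 3; log2FC 1.85 ± 0.18, edgeR adjusted p = 0.000135). In CHL1 MAGEA2B alone of this list was tested and was not called (-0.21 ± 0.08), but was called by edgeR without parental replicate 2 (adjusted p = 0.0485) or resistant replicate 1 (0.0479).

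Among 48 other X-linked cancer-testis genes, 24 were tested in A375, and 12 fell, 1 rose and 11 were not called, with a list median of -0.53 beside -0.000844 over all genes. In parts 8 to 10 of the gene order 7 of 9 fell and 1 rose, and elsewhere on the chromosome 5 of 15 fell and 0 rose. Of all tested genes in parts 8, 9 and 10, members left out, 41, 45 and 42 of 49 fell and 3, 3 and 0 rose. The share of the list that fell in parts 8 to 10 was thus no higher than that of its surroundings. In parts 1 to 7, from 1 (part 2) to 11 (part 4) of 49 or 50 tested genes fell. The share of the list that fell outside parts 8 to 10 was thus higher than in any of those parts. The genes were GAGE1, GAGE10, GAGE12J and PAGE2 in part 4 and CT83 in part 7. SPANXB1, a sperm protein gene among those flanking MAGEC1 and MAGEC2, fell from 11.9, 14.9 and 33.2 CPM to 0.502 to 0.765 CPM (log2FC -4.88 ± 0.46, edgeR adjusted p = 0.000122). CSAG1, which lies among the MAGEA genes, fell by 1.15 ± 0.06 on the log2 scale (edgeR adjusted p = 8.69e-06). GAGE1 (-4.50 ± 0.37) and GAGE12J (-1.77 ± 0.15) also fell, and GAGE and SPANX genes have near-identical copies, so each is uncertain as a single gene. CT55 rose from 0.497 ± 0.119 to 5.74 ± 0.443 CPM (SD, n = 3; log2FC 3.52 ± 0.20, edgeR adjusted p = 8.69e-06), within the stretch whose genes mostly fell.

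In CHL1, 4 genes of this X-linked list were tested and 3 rose: SSX1 (log2FC 2.00 ± 0.14), CT55 (2.49 ± 0.39) and XAGE2 (1.02 ± 0.26), while CSAG1 stood at -0.22 ± 0.07 and was not called. It was called by edgeR with RLE factors (adjusted p = 0.0493), with a mean of at least 1 CPM (0.0440) and without resistant replicate 2 (0.0421). SSX1, a transcriptional repressor of the germline, went from 2.28 ± 0.517 to 9.16 ± 0.617 CPM (SD, n = 3; edgeR adjusted p = 3.14e-06). CT55 went from 5, 1 and 6 counts to 18, 26 and 25 counts (edgeR adjusted p = 0.000892). XAGE2 went from 11, 14 and 15 counts to 29, 23 and 29 counts (edgeR adjusted p = 0.0149), and its call was lost with DESeq2 (adjusted p = 0.0641). In edgeR the call was also lost without parental replicate 1 (adjusted p = 0.0677), resistant replicate 1 (0.0519) or resistant replicate 3 (0.0509). By edgeR CT55 was thus higher in the resistant cells of both lines, and the difference between its effects was 1.03 ± 0.53 (edgeR adjusted p = 0.189). In CHL1 DESeq2 gave an adjusted p to 3 of these 4 genes and called 1. With a mean of at least 1 CPM, CT55 was not tested in CHL1.

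On the autosomes, 10 of 20 listed germline and cancer-testis genes were tested in A375: TEX15 (log2FC 0.93 ± 0.18) and LIN28B (0.43 ± 0.08) rose, STK31 (-1.85 ± 0.42) fell and 7 were not called. LIN28B, which blocks maturation of let-7 microRNAs, moved the other way in CHL1, from 4.04 ± 0.551 to 1.96 ± 0.486 CPM (SD, n = 3; log2FC -1.03 ± 0.18, edgeR adjusted p = 0.00161). In CHL1 it was the only 1 of 5 tested to be called. Of 8 type II MAGE genes tested in A375, 2 rose and 0 fell, where 28.3% of all genes were called. TRO, which codes for the adhesion protein trophinin, rose from 2.01 ± 0.209 to 17.5 ± 0.809 CPM (SD, n = 3; log2FC 3.13 ± 0.12, edgeR adjusted p = 1.78e-06), and MAGEH1 by 0.48 ± 0.13. The edgeR call of MAGEH1 needed 3 libraries, parental replicate 1 and resistant replicates 1 and 2 (adjusted p up to 0.0661 without one of them). In CHL1, 3 of 9 type II genes fell: MAGEF1 (-0.41 ± 0.06), MAGEE1 (-0.58 ± 0.14) and NSMCE3 (-0.23 ± 0.06), a subunit of the SMC5/6 complex. Their edgeR calls held in every fit that left out 1 library for MAGEF1, not for MAGEE1 without resistant replicate 3 (adjusted p = 0.0511), nor for NSMCE3 without parental replicate 1 (0.0828), resistant replicate 1 (0.0559) or resistant replicate 2 (0.0506).

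**Figure D5:**
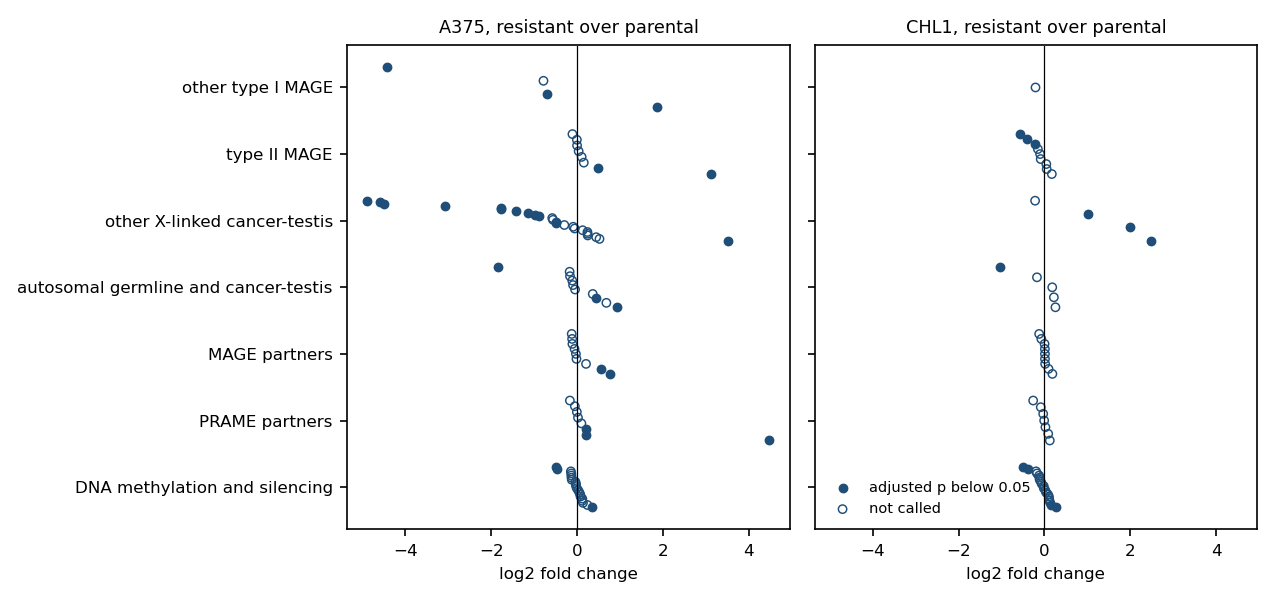
log2 fold change of resistant over parental cells for the tested genes of 7 related lists, A375 on the left and CHL1 on the right, filled where the adjusted p was below 0.05. Among the X-linked cancer-testis genes 12 of 24 fell in A375, and 3 of 4 rose in CHL1, while partner and silencing genes lie mostly near 0.

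Of 9 listed partners of MAGE proteins, all tested, 2 rose in A375 and 0 in CHL1, where 28.3% and 21.0% of all genes were called. TRIM28, the ligase bound by MAGEA3, MAGEA6 and MAGEC2 proteins, rose from 868 ± 41.1 to 1271 ± 36.4 CPM in A375 (SD, n = 3; log2FC 0.55 ± 0.05, edgeR adjusted p = 0.000113) and stood at 0.02 ± 0.04 in CHL1. PRKAA2, a catalytic subunit of AMPK, rose by 0.77 ± 0.12 in A375 (edgeR adjusted p = 0.00181). USP7 and TRIM27 were not called in either line. In CHL1 edgeR gave 0 calls among these 9 genes, with 1 at an unadjusted p below 0.05, and DESeq2 gave 0.

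Of 8 PRAME partners, 3 rose in A375 and 0 fell, where 28.3% of all genes were called. RARB, a retinoic acid receptor that is itself a retinoid target, rose from 0.509 ± 0.187 to 11.5 ± 2.59 CPM (SD, n = 3; log2FC 4.49 ± 0.27, edgeR adjusted p = 1.44e-05). EZH2, the histone methyltransferase through which PRAME represses such receptors, changed by 0.21 ± 0.05 and CUL2, the scaffold of its ligase, by 0.20 ± 0.06. Both of these calls were lost when some single libraries were left out, with edgeR adjusted p up to 0.0792 for EZH2 (without parental replicates 1 or 3, or resistant replicates 1 or 2) and 0.105 for CUL2 (without parental replicates 1 or 3, or resistant replicates 2 or 3). CUL2 also lost its call with no filter on low counts (edgeR adjusted p = 0.0560). In CHL1, where PRAME was near 0, edgeR called 0 of 7 partners, with 1 at an unadjusted p below 0.05, and DESeq2 called 0.

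Of 20 tested genes of the list on DNA methylation and silencing, 1 rose and 2 fell in A375. Of all genes, 28.3% were called there and 21.0% in CHL1. The maintenance methyltransferase DNMT1 stood at 0.12 ± 0.05, DNMT3A at -0.02 ± 0.19 and DNMT3B at 0.14 ± 0.14, none of them called. MPHOSPH8, of the HUSH silencing complex, changed by -0.50 ± 0.07 and the remodeller HELLS by -0.46 ± 0.08, and MORC2 was higher by 0.34 ± 0.08. The edgeR call of MORC2 was lost without resistant replicate 1 (adjusted p = 0.0549) or replicate 3 (0.0588). In CHL1, 2 of 20 rose, MORC2 (0.26 ± 0.05) and HDAC2 (0.15 ± 0.04), and 2 fell, KDM1A (-0.51 ± 0.04) and HDAC1 (-0.39 ± 0.04). The edgeR call of HDAC2 did not survive leaving out any of 4 libraries, parental replicates 1 and 2 and resistant replicates 1 and 3 (adjusted p up to 0.111). Promoter methylation itself was not measured.

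Other genes followed the antigens across the 12 libraries, which is a description only, since the points share 4 groups and 2 lines. By Pearson's r of log2(CPM + 1) over 12873 genes, SERPINH1, a collagen chaperone (r = 0.9998), MAP9 (0.9996) and IGF2BP1, an RNA-binding protein (0.9996), were nearest to PRAME. With PRAME 2212 genes had an r above 0.95, so these names stand out little. Nearest to the summed MAGE level were CT83, itself a cancer-testis gene (0.998), DDA1 (0.997) and IFIT5 (0.996), with 510 genes above 0.95. CT83 stood at a mean of 3.40 CPM in parental A375, 1.27 CPM in resistant A375 and 0 and 0.0121 CPM in the CHL1 groups.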

How the data were processed

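RNA of 12 samples of the melanoma lines A375 and CHL1 was sequenced from TruSeq v2 libraries, per the labels' protocols, and that kit does not mark the strand. The authors deposited 1 table per line of raw read counts per Ensembl gene, as whole numbers. Per the submitters' processing notes, the software included HTSeq 0.5, TopHat2, cutadapt 1.7, CASAVA 1.8.2 and limma. The annotation, the genome build and the treatment of reads matching several genes were not given in the sources used here. Symbols, gene order, transcripts and lengths came from a name table and GENCODE release 29, and promoters from RefSeq (GRCh38.p14). Identifiers without a symbol held 1.62% of the counts in A375 and 1.38% in CHL1.

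Each line was fitted with edgeR 4.0.16 in R 4.3.3 (TMM, filterByExpr with a minimum count of 10, quasi-likelihood F-test). Differences between lines came from 1 fit of all 12 libraries over genes in both tables. P-values were two-sided and adjusted over all genes tested by Benjamini-Hochberg, and a gene was called below 0.05. The SE was taken as |log2FC| over the square root of F. The fits were tested on simulated data. The alternatives were RLE factors, no filter, a mean of at least 1 CPM, DESeq2 1.42.0, the replicate number as a block, leaving out each library, summed near-identical genes and the longest transcript as length.

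The members and lists were chosen with earlier results of these data known, and some listed genes are not reported here. Named from each list were its called genes, up to 4 per direction by adjusted p, with further genes as examples chosen after their values were seen. Flanking genes were the 10 nearest tested protein-coding genes on each side. Ratios of summed counts carry exact 95% intervals. Those intervals, and the floor of 3 counts, describe counting error alone, because PCR copies were not marked by molecular identifiers.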

Additional observations from a re-analysis of the deposited data

Results flagged for a closer look

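The resistance effect differed between A375 and CHL1 by the interaction term (A375 effect minus CHL1 effect on the log2 scale) for 15 of the 30 genes named from the related lists and tested, with edgeR adjusted p between 2.16e-10 and 0.0192. Those 30 had been named for their results within a line. Over all genes of these lists 18 of 82 tested were called, beside 23.6% of all genes. Among genes near the MAGEA members, CSAG1 (-0.93) and MAGEA2B (-0.50) had the lower effect in A375. Of the other cancer-testis and germline genes, SSX1 (-2.57) and STK31 (-2.11) had the lower effect in A375, and LIN28B (1.46) and TEX15 (0.75) the higher one. The type II genes TRO (3.28) and MAGEF1 (0.56) had the higher effect in A375. So did TRIM28 (0.54) and PRKAA2 (0.85) among MAGE partners and RARB (3.97) among PRAME partners, RARB with 9 and 13 counts over the parental and resistant CHL1 libraries. The calls of RARB (without CHL1 parental replicates 1 or 2, edgeR adjusted p up to 0.0887) and STK31 (without A375 resistant replicate 2 or CHL1 resistant replicates 1 or 3, up to 0.0645) were each lost in some fits that left out 1 library. Among silencing genes the term was negative for HELLS (-0.56) and MPHOSPH8 (-0.37), and positive for KDM1A (0.59) and HDAC1 (0.36).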

How the results depend on the processing

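In A375 the number of called genes (5111) ran from 4657 with DESeq2 to 6307 with the replicate number as a block, and in CHL1 (3623) from 3152 to 4339 in the same settings. The block also called CSAG1 (edgeR adjusted p = 0.0440) and MAGEA2B (0.0454) in CHL1 and changed no other call among genes named from the lists. The replicate numbers were not shown to pair the samples: same-numbered libraries correlated at 0.26, 0.27 and -0.01 in A375 and at 0.15, 0.01 and 0.03 in CHL1, and in neither line did every library correlate best with its own number. Leaving out 1 library gave 3783 to 4738 calls in A375 and 2634 to 3297 in CHL1, with fewer samples in each fit. Summing the counts of all MAGE-A members gave -1.19 for A375 in place of the separate values of MAGEA3 and MAGEA6, and turned the resistant A375 over CHL1 comparison to 1.40, since the sum is mostly MAGEA4. Summing MAGEA3 and MAGEA6 alone gave -0.96 in A375. Leaving out 1 library gave log2FC values from -6.86 (without resistant replicate 1) to -6.20 for MAGEA10 and from 1.19 to 2.36 for MAGEC1 in A375. In CHL1 PIWIL1, of the autosomal list and not called, ranged from -0.18 (without resistant replicate 1) to 0.57. In CHL1 a mean of at least 1 CPM left CT55 and XAGE2 untested, and DESeq2 called 1 X-linked cancer-testis gene there in place of 3. Depth limits the CHL1 values of MAGEA1, MAGEA4, MAGEC1, MAGEC2 and PRAME, with at most 16 counts in any library.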
